A study of Mus musculus with 12 samples.

Results

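The genes described here are 34 genes that mark macrophages and other myeloid cells of the heart. They were chosen by symbol from the deposited table of 19308 genes, all 34 were found there, and all 34 passed the filter on low counts. By role they comprised 4 genes of resident macrophages (Timd4, Lyve1, Folr2, Cd163), 4 of recruited or lipid-handling macrophages (Ccr2, Lgals3, Trem2, Gpnmb), 4 of antigen presentation (H2-Aa, H2-Ab1, H2-Eb1, Cd74), 12 surface receptors and identity genes, 3 chains of complement C1q, and 7 adaptors and intracellular proteins. RNA was sequenced from whole hearts of C57BL/6 mice. WT and F3-KO animals had either sham surgery or TAC, which gave 4 groups with 3 hearts apiece. Surgery was performed at 8 weeks of age, and hearts were collected 1 week later. TAC, transverse aortic constriction, ties the aortic arch to a smaller bore and so loads the left ventricle with pressure, and sham surgery omits the tie. F3-KO mice carry a global deletion of Fabp3, the heart-type fatty acid binding protein, made with CRISPR-Cas9, so macrophages as well as cardiomyocytes carry the deletion.

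Cardiac macrophages include a resident population, seeded before birth and maintained largely by division in the tissue, and cells that derive from circulating monocytes, which enter the heart through the chemokine receptor Ccr2. Timd4, Lyve1 and Folr2 mark the resident cells, and MHC class II molecules, which present peptides to CD4 T cells, are carried by a further part of the macrophages and by dendritic cells. In pressure overload, macrophages clear debris, remodel matrix and exchange signals with fibroblasts.

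Libraries held 10424326 to 14372023 estimated counts, so that 3 counts, taken as the floor of detection, corresponded to 0.209 to 0.288 CPM, counts scaled to the library total. The targeted gene followed the labels: Fabp3 stood at 2117 to 3064 CPM in the 6 WT hearts and at 1002 to 1143 CPM in the 6 F3-KO hearts. Its RNA was therefore lower but not absent in F3-KO hearts. For the protein, the authors report a complete loss of FABP3 from the heart by western blot. Levels below are CPM after scaling with TMM factors, and fold changes are log2 values fitted by edgeR, given with their standard error (SE). B cell markers were low, with a summed level of 0.549 to 2.17 CPM over 5 genes and 0 of the 5 passing the filter, and Cd79b was detected in every heart. Of the 8 T and NK cell markers, 3 passed the filter, and the summed level was 2.14 to 13.7 CPM.

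Promoter windows of 6 genes on which the comparisons below turn are shown for the motifs they hold. Of the 34 genes, 26 had a promoter window in the RefSeq table of build GRCm38.p6, in 30 windows of 250 bases upstream of the start. The MHC class II genes H2-Aa at chr17:34287824-34288073 (minus strand) and H2-Eb1 at chr17:34305617-34305866 (plus strand) are shown because the comparison of genotypes turns on class II genes. H2-Ab1 and Cd74 had no promoter window. Capitals mark the Y box GATTGG, searched on both strands, or its reverse complement.
H2-Aa: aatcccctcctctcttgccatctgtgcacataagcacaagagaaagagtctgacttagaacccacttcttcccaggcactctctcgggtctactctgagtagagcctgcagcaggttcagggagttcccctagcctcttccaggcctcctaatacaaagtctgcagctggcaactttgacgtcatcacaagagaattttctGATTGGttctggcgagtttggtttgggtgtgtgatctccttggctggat
H2-Eb1: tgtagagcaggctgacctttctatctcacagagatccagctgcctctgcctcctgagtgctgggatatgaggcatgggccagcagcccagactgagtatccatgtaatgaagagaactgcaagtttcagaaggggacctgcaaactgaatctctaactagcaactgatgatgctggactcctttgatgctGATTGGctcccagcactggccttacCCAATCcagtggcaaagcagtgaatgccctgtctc
The match in H2-Aa lay 49 to 44 bases before the start, and the matches in H2-Eb1 lay 60 to 55 and 35 to 30 bases before it. The motif was held by 5 of the 30 windows and by 14.6% of the 32851 windows of all genes.

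The C1q genes C1qb at chr4:136886201-136886450 (minus strand) and C1qc at chr4:136892915-136893164 (minus strand), the Fc receptor gene Fcgr1 at chr3:96293970-96294219 (minus strand) and Trem2 at chr17:48346151-48346400 (plus strand) are shown because they were among the genes with the lowest p in the comparison of surgeries or, for C1qc, a chain of the same protein. Capitals mark the core AGGAAG, the sequence bound by the myeloid factor PU.1, or its reverse complement, and in Trem2 also the Y box.
C1qb: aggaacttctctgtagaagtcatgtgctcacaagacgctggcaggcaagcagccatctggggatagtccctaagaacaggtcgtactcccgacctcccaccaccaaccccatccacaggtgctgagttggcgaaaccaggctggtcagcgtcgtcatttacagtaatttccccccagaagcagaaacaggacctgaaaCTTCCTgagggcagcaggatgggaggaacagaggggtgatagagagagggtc
C1qc: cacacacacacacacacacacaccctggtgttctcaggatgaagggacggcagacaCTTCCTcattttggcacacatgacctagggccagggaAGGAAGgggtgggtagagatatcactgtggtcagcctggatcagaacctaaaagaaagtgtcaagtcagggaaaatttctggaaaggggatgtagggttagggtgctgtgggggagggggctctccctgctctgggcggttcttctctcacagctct
Fcgr1: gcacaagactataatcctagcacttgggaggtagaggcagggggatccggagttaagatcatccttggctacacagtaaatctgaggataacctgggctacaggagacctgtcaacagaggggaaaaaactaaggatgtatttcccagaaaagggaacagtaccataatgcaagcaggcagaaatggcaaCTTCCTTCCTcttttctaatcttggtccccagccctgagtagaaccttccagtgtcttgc
Trem2: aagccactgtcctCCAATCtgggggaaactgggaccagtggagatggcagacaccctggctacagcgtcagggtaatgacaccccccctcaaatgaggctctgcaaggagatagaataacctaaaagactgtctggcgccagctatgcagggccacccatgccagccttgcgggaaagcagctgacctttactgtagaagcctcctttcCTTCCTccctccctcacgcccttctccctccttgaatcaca
The 2 matches in Fcgr1 overlap, at 60 to 55 and 56 to 51 bases before the start. The core was held by 15 of the 30 windows and by 29.5% of the windows of all genes. Every window shown holds a match. Those of Ctss, which had the lowest adjusted p in the comparison of surgeries, and of Ms4a7 held 0 matches to either motif and are not shown. Fcgr3, Folr2 and Ptprc each gave 2 of the windows with the core, and the windows of Fcgr3 and of Ptprc overlap, so the windows are not independent. A match describes the letters only and shows no binding.

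After TAC, most of the 34 genes were higher than after sham. Averaged over both genotypes, 33 of the 34 genes had a log2 fold change above 0, against 50.8% of all 14095 genes tested, and the median over the 34 was 0.75 against 0.00 over all genes. At an adjusted p under 0.05 in edgeR's quasi-likelihood test, 0 of the 34 were called, beside 11 genes or 0.078% of all genes. With no adjustment, at p of 0.05 or less, 23 of the 34 were higher and 0 lower, beside 11.3% of all genes higher, 6.52% lower and 17.8% in either direction. DESeq2's Wald test on the same counts called 19 of the 34 at an adjusted p under 0.05, and limma-trend called 0. In whole hearts, more cells of a type and more RNA per cell cannot be told apart.

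The recruited genes lay at a median log2 fold change of 1.12 over sham, with 3 of 4 at the unadjusted threshold. The 4 resident genes lay at a median of 0.34, with 0 of 4. The antigen-presenting genes lay at 0.38, also with 0 of 4. Of the surface receptors and identity genes, 10 of 12 passed the unadjusted threshold, as did all 3 C1q chains and all 7 adaptors and intracellular proteins, and the medians of these groups were 0.94, 0.76 and 0.76. The difference between role groups was not tested.

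**Figure D1:**
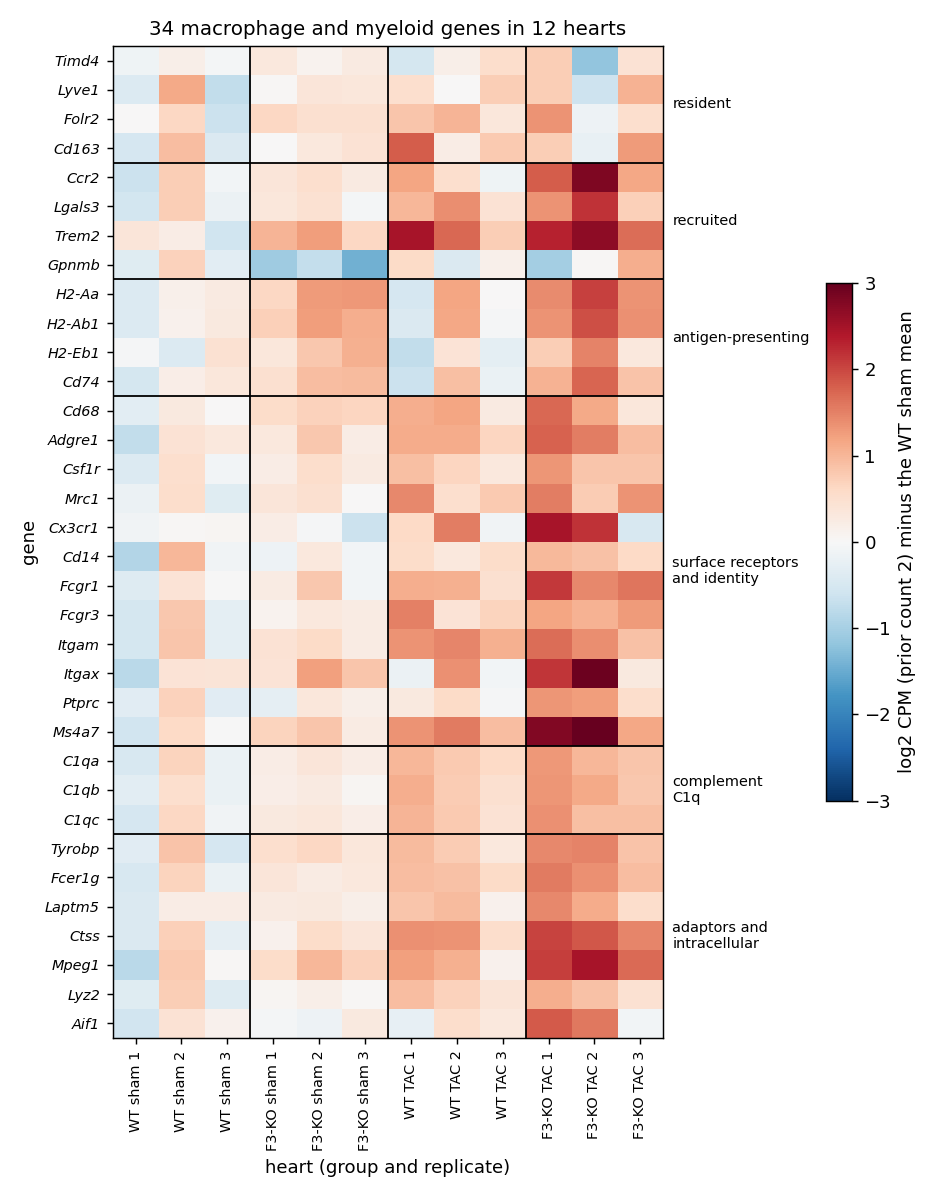
Level of each of the 34 genes (rows, by role) in each of the 12 hearts (columns), as log2 CPM minus the mean of the 3 WT sham hearts, with red above and blue below that mean. The F3-KO TAC replicates 1 and 2 are the reddest columns. Lyve1, Folr2 and Cd163 lie above the WT sham mean in every TAC heart except F3-KO TAC replicate 2. In that heart all 4 resident rows lie below the mean, and in the F3-KO sham hearts all 4 lie above it.

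Hearts within a group differed more in these genes than in most. The median SD of log2 CPM within the WT sham group was 0.59 over the 34 genes and 0.22 over all genes, and it was 0.47 against 0.25 in WT TAC, 0.43 against 0.24 in F3-KO TAC and 0.22 against 0.16 in F3-KO sham. In the WT sham group, replicate 2 was the highest heart for 27 of the 34 genes, and replicate 1 was the lowest for 26. Neutrophil markers stood apart in the same WT sham replicate 2, with a summed level of 40.5 CPM over 6 genes against 7.44 to 22.3 CPM in the other 11 hearts, and Ly6g, a defining neutrophil marker, was at 0 in 7 of the 12 hearts. Replicate 3 of each TAC group was low: it was the lowest of its group for 21 of the 34 genes in WT TAC and for 23 in F3-KO TAC. The same 2 hearts had the lowest levels of the 5 markers of dividing cells among TAC hearts, at 2.40 CPM in WT TAC replicate 3 and 3.63 CPM in F3-KO TAC replicate 3, against 23.2 to 232.6 CPM in the other 4. Fibroblast markers, 6 genes, summed to 592 to 1378 CPM in sham hearts of both genotypes and to 979 to 4168 CPM in TAC hearts, highest in F3-KO TAC replicate 2. Cardiomyocyte markers, 5 genes, summed to 36899 to 47117 CPM in F3-KO TAC, below every heart of F3-KO sham (58972 to 68303) and WT TAC (48269 to 73239), and WT sham replicate 2 had the lowest sum of the sham hearts, 40357 CPM. Red blood cell markers were lower in F3-KO TAC than in F3-KO sham for 5 of 5 genes at an unadjusted p of 0.05 or less, with a median log2 fold change of -2.16. The part of these differences in the results was not tested. Without F3-KO TAC replicate 3, edgeR called 19 of the 34 in the averaged comparison, without WT sham replicate 2 it called 12, and leaving out any other heart it called 0.

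Of the resident genes, Timd4, a receptor for phosphatidylserine on dying cells, showed no shift between groups beyond its spread. Its levels were 2.04, 2.57 and 2.13 CPM in WT sham, 2.83, 2.42 and 2.75 in F3-KO sham, 1.49, 2.55 and 3.30 in WT TAC and 3.87, 0.893 and 3.05 in F3-KO TAC. All 4 groups overlapped, and the averaged log2 fold change over sham was 0.04 (SE 0.33). Lyve1, a hyaluronan receptor also carried by lymphatic endothelium, stood at 25.2, 73.2 and 19.9 CPM in WT sham, 33.9, 42.8 and 42.0 in F3-KO sham, 47.3, 33.7 and 55.4 in WT TAC and 55.5, 21.4 and 68.3 in F3-KO TAC. WT sham replicate 2 was the highest of all 12 hearts, and the averaged log2 fold change was 0.25 (SE 0.33). Leaving out each heart in turn, that fold change ran from 0.080 to 0.65. Lymphatic markers, 5 genes that all passed the filter, summed to 164 to 303 CPM across hearts.

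Folr2, a folate receptor, measured 9.52, 14.8 and 6.05 CPM in WT sham, 14.7, 13.3 and 13.2 in F3-KO sham, 17.03, 19.4 and 12.1 in WT TAC and 24.4, 8.49 and 13.5 in F3-KO TAC. Cd163, the scavenger receptor for haemoglobin bound to haptoglobin, measured 16.1, 43.4 and 16.9 CPM in WT sham, 23.1, 28.5 and 31.1 in F3-KO sham, 81.2, 26.8 and 39.3 in WT TAC and 37.8, 19.6 and 55.3 in F3-KO TAC. Both overlapped between sham and TAC in each genotype, with averaged log2 fold changes of 0.43 (SE 0.26) for Folr2 and 0.70 (SE 0.34) for Cd163. F3-KO TAC replicate 2 was the lowest of its group for all 4 resident genes.

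Among the recruited genes, Ccr2, the receptor for the monocyte chemokine Ccl2, was at 2.14, 5.77 and 3.19 CPM in WT sham and at 4.41, 4.93 and 4.12 in F3-KO sham. It was at 8.00, 4.93 and 3.10 CPM in WT TAC and at 12.4, 24.8 and 7.83 in F3-KO TAC. The F3-KO TAC hearts lay above every sham heart, and the WT TAC hearts overlapped the WT sham hearts. The log2 fold change over sham was 1.74 (SE 0.46) in F3-KO hearts and 0.54 (SE 0.47) in WT hearts, and the difference between genotypes was 1.20 (SE 0.66, edgeR adjusted p = 0.954). Without F3-KO TAC replicate 2 the fold change in F3-KO hearts was 1.16 and the difference 0.63, and without WT sham replicate 2 the difference was 0.74. F3-KO TAC replicate 2, the heart lowest in resident genes within its group, was the highest of all hearts in Ccr2, and the ratio of Ccr2 to Lyve1 ran from 0.056 in WT TAC replicate 3 to 1.15 in that heart.

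Trem2, a lipid receptor of macrophages that signals through Tyrobp, was at 1.75, 1.56 and 0.818 CPM in WT sham, 2.83, 3.37 and 2.11 in F3-KO sham, 8.08, 4.76 and 2.301 in WT TAC and 7.21, 9.31 and 4.54 in F3-KO TAC. TAC hearts lay above sham hearts in both genotypes, with an averaged log2 fold change of 1.61 (SE 0.32, edgeR adjusted p = 0.0871). Lgals3, galectin-3, was at 2.82, 7.15 and 3.68 CPM in WT sham, 5.41, 5.88 and 4.03 in F3-KO sham, 8.63, 11.4 and 5.70 in WT TAC and 10.9, 19.4 and 7.01 in F3-KO TAC. Its F3-KO TAC hearts lay above the F3-KO sham hearts, while in WT hearts WT sham replicate 2 exceeded the lowest TAC heart, and the averaged log2 fold change was 1.10 (SE 0.29, edgeR adjusted p = 0.111).

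Gpnmb, a membrane glycoprotein of lipid-loaded macrophages, was at 2.14, 4.58 and 2.21 CPM in WT sham, 1.25, 1.64 and 0.916 in F3-KO sham, 4.24, 2.03 and 3.10 in WT TAC and 1.29, 2.87 and 6.19 in F3-KO TAC. Unlike the other recruited genes, it was lower in every F3-KO sham heart than in any WT sham heart, and in F3-KO TAC hearts replicate 3 was the highest rather than the lowest. The log2 fold change over sham was 1.43 (SE 0.55) in F3-KO hearts and 0.07 (SE 0.53) in WT hearts, with a difference between genotypes of 1.36 (SE 0.76, edgeR adjusted p = 0.954). Without F3-KO TAC replicate 3 the fold change in F3-KO hearts was 0.71 and the difference 0.64.

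**Figure D2:**
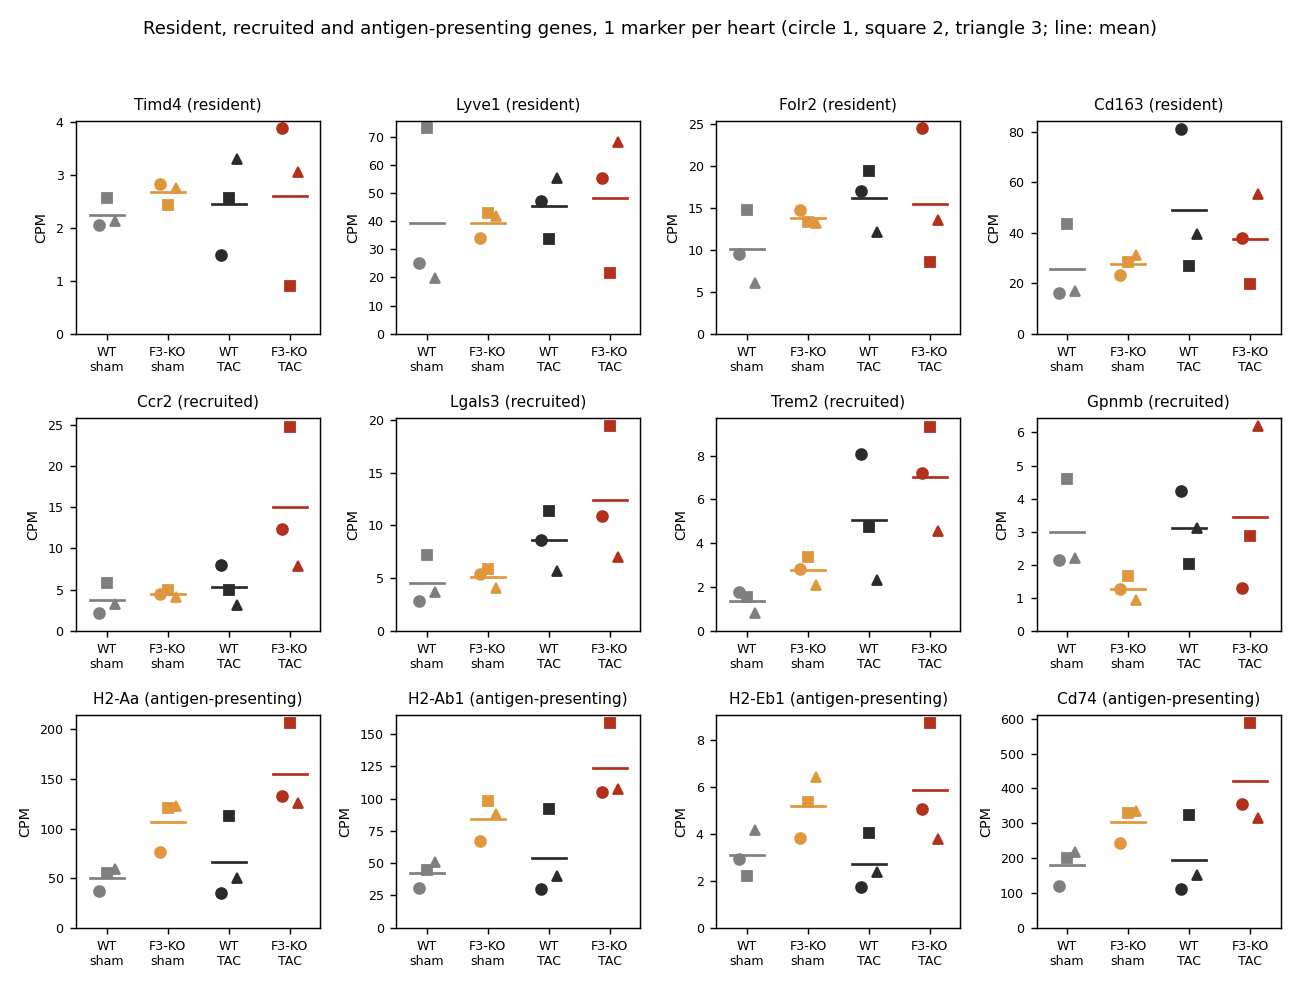
CPM of the 12 resident, recruited and antigen-presenting genes in each heart (1 marker per heart, line at the group mean). Lyve1 overlaps in all 4 groups, Trem2 is higher in every TAC heart than in the sham hearts of the same genotype, and H2-Aa and H2-Ab1 are higher in every F3-KO heart than in the WT hearts of the same surgery.

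Within WT hearts, 33 of the 34 genes had a log2 fold change above 0, beside 50% of all genes. At the unadjusted threshold 16 of the 34 were higher and 0 lower in edgeR, beside 3.68% of all genes higher and 2.6% lower, and 0 of 34 were called at an adjusted p, beside 0% of all genes. DESeq2 and limma-trend also called 0 at an adjusted p. In 5 of the 34 genes every WT TAC heart lay above every WT sham heart (Trem2, Adgre1, Fcgr1, Itgam, Ms4a7), beside 4.68% of all genes, and in 0 every TAC heart lay below, beside 4.43%. The count of 16 was 6 without WT sham replicate 1 and 9 without WT sham replicate 3 or WT TAC replicate 1, and 24 without WT sham replicate 2. The highest log2 fold changes were those of Trem2 at 1.89 (SE 0.47), Ms4a7 at 1.28 (SE 0.49) and Itgam, the alpha chain of the integrin of myeloid cells, at 1.19 (SE 0.32).

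Within F3-KO hearts, 33 of the 34 genes had a log2 fold change above 0, beside 52.9% of all genes. At the unadjusted threshold 24 were higher and 0 lower in edgeR, beside 10.6% of all genes higher and 6.47% lower. At an adjusted p, edgeR called 0 (0% of all genes), limma-trend 0 and DESeq2 8. In 23 of the 34 every F3-KO TAC heart lay above every F3-KO sham heart, beside 11.5% of all genes, and in 0 every TAC heart lay below, beside 11.4%. Without F3-KO TAC replicate 3, edgeR called 13 of the 34 at an adjusted p. All 4 recruited genes passed the unadjusted threshold, with a median log2 fold change of 1.38, while 0 of 4 resident genes (median 0.23) and 0 of 4 antigen-presenting genes (median 0.51) did. TAC hearts lay above sham hearts in both genotypes for 5 of the 34 genes, the same 5 as named for WT hearts, beside 1.18% of all genes.

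**Figure D3:**
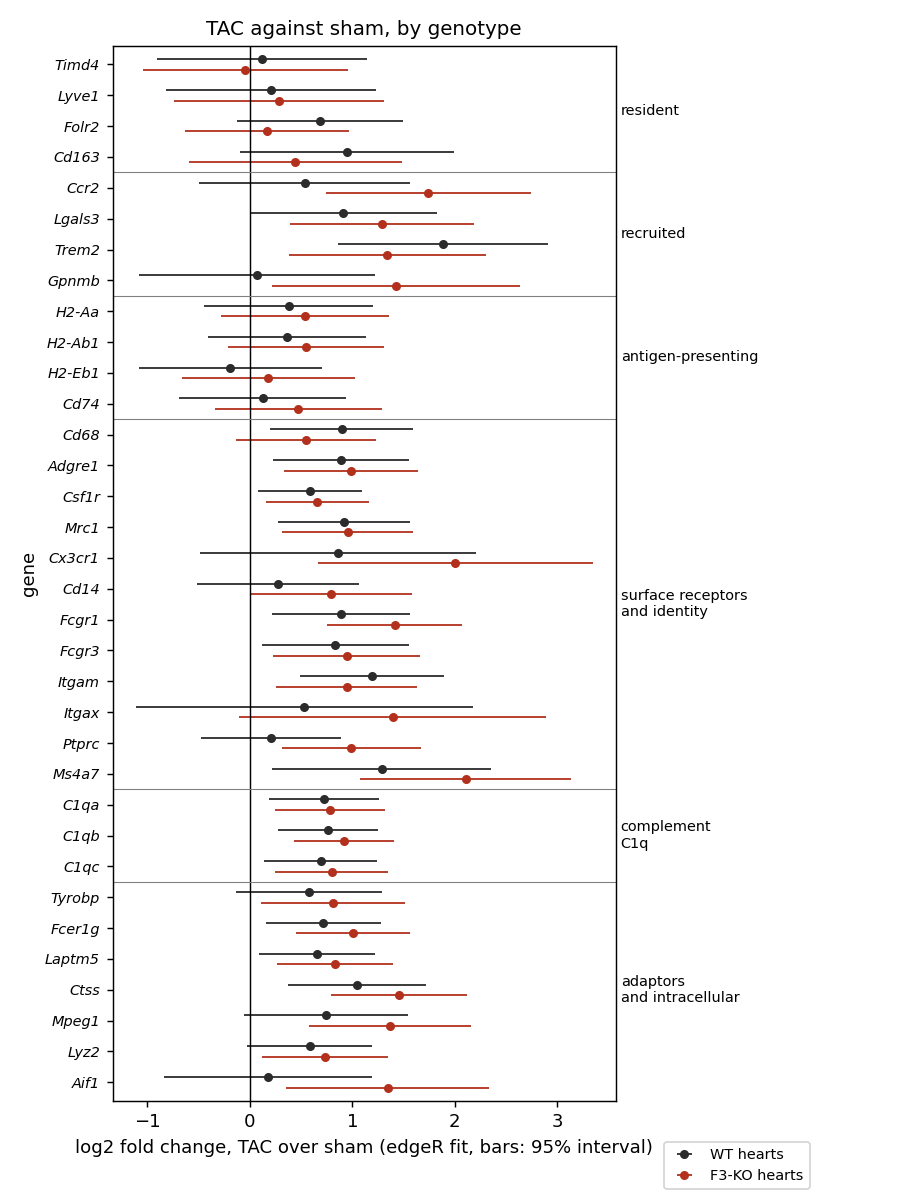
Log2 fold change of TAC over sham for each gene in WT hearts (black) and F3-KO hearts (red), with 95% intervals from the edgeR fit of 3 hearts per group. The intervals of all 4 resident and all 4 antigen-presenting genes include 0 in both genotypes, and those of the 4 recruited genes in F3-KO hearts do not.

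Of the surface receptors, Ms4a7, a tetraspan protein of macrophages, had the largest averaged log2 fold change of the 34 genes, 1.69 (SE 0.34, edgeR adjusted p = 0.0880). It was at 1.17, 2.84 and 1.80 CPM in WT sham, 2.99, 3.37 and 2.20 in F3-KO sham, 4.86, 5.72 and 3.60 in WT TAC and 13.5, 19.1 and 4.29 in F3-KO TAC. All 6 TAC hearts lay above all 6 sham hearts, which was otherwise so only for Itgam among the 34, beside 0.553% of all genes (0 of the 34 lay below in all, beside 0.284%), and with library totals in place of TMM factors it was so for 0 of the 34. Fcgr1, the high-affinity receptor for IgG, was at 2.72, 4.86 and 3.60 CPM in WT sham, 4.32, 6.49 and 3.39 in F3-KO sham, 7.85, 7.75 and 5.10 in WT TAC and 16.4, 10.1 and 11.4 in F3-KO TAC. Its averaged log2 fold change was 1.15 (SE 0.22, edgeR adjusted p = 0.0652).

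Cx3cr1, the fractalkine receptor, split the F3-KO TAC group. It was at 21.2 and 17.1 CPM in F3-KO TAC replicates 1 and 2 and at 2.56 CPM in replicate 3, against 5.65, 10.9 and 3.40 CPM in WT TAC and 2.29 to 4.32 CPM in the 6 sham hearts. Aif1, an actin-binding protein used to stain macrophages, had the same split, at 9.49 and 7.85 CPM against 2.39 CPM. The remaining receptors, among them the growth factor receptor Csf1r, the mannose receptor Mrc1 and the F4/80 antigen gene Adgre1, had averaged log2 fold changes of 0.62 (SE 0.16), 0.94 (SE 0.21) and 0.94 (SE 0.21). Cd14, the co-receptor for lipopolysaccharide, and Itgax, the CD11c integrin chain, did not pass the unadjusted threshold, at 0.54 (SE 0.25) and 0.96 (SE 0.51), and Itgax was at 0.291 CPM, at the floor of 3 counts, in WT sham replicate 1.

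The 3 chains of C1q, the recognition part of the classical complement pathway made largely by macrophages, varied together across hearts. C1qb was at 50.4, 88.4 and 54.8 CPM in WT sham, 72.3, 75.5 and 64.9 in F3-KO sham, 133.7, 107 and 87.8 in WT TAC and 156, 137 and 109 in F3-KO TAC. WT sham replicate 2 lay just above WT TAC replicate 3, and all F3-KO TAC hearts lay above all sham hearts. Averaged log2 fold changes were 0.76 (SE 0.17) for C1qa, 0.84 (SE 0.16) for C1qb and 0.74 (SE 0.18) for C1qc, with an edgeR adjusted p of 0.0652 for C1qb. The ratio of C1qb to C1qa ranged over hearts from 0.788 to 0.996, a 1.26-fold spread, and that of C1qc to C1qa from 0.644 to 0.766.

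Among the intracellular proteins, Ctss, the lysosomal protease cathepsin S that trims the invariant chain, had the lowest adjusted p of the 34. It was at 12.9, 28.9 and 14.5 CPM in WT sham, 19.3, 25.8 and 22.7 in F3-KO sham, 46.0, 44.8 and 25.2 in WT TAC and 72.5, 64.8 and 48.5 in F3-KO TAC. WT TAC replicate 3 lay within the sham range, and the averaged log2 fold change was 1.25 (SE 0.22, edgeR adjusted p = 0.0614). The adaptors Fcer1g and Tyrobp, which carry the signal of Fc receptors and Trem2, were at averaged log2 fold changes of 0.86 (SE 0.18) and 0.69 (SE 0.23), and the pore-forming protein gene Mpeg1 at 1.06 (SE 0.26). Lyz2, lysozyme, was at 0.66 (SE 0.20), and because its paralog Lyz1 is nearly identical, the counting could have moved reads between them.

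The comparison of genotypes asked how Fabp3 deletion bears on the same genes. After sham, 29 of the 34 had a log2 fold change above 0, beside 49.1% of all genes. At the unadjusted threshold 2 were higher in edgeR (H2-Aa, H2-Ab1), beside 2.81% of all genes, and 1 was lower (Gpnmb), beside 3.21%, or 6.02% in either direction. Every F3-KO heart lay above every WT heart for 5 of the 34 (Trem2, H2-Aa, H2-Ab1, Cd74, Cd68), beside 6.78% of all genes, and below for 1 (Gpnmb), beside 6.93%. At an adjusted p, edgeR, DESeq2 and limma-trend each called 0 of the 34, beside 0.106% of all genes in edgeR. After TAC, 32 of the 34 had a log2 fold change above 0, beside 53.1% of all genes. At the unadjusted threshold 12 were higher and 0 lower, beside 5.83% of all genes higher and 4.17% lower, and edgeR, DESeq2 and limma-trend each called 0 at an adjusted p, beside 0.078% of all genes in edgeR. The 12 comprised all 4 antigen-presenting genes, Ccr2, Fcgr1, Itgax, Ptprc, Ms4a7, Ctss, Mpeg1 and Aif1. This count was 4 without F3-KO TAC replicate 2, 5 without WT TAC replicate 3 and 7 without F3-KO TAC replicate 1.

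Of the 4 antigen-presenting genes, 2 passed the unadjusted threshold after sham and 4 after TAC, and 0 passed an adjusted p after either. H2-Aa, the MHC class II alpha chain, was at 37.1, 55.4 and 59.3 CPM in WT sham, 76.8, 121 and 122 in F3-KO sham, 34.9, 113 and 49.7 in WT TAC and 133, 206 and 126 in F3-KO TAC. H2-Ab1, its beta chain, was at 30.7, 44.8 and 50.7 CPM in WT sham, 67.5, 97.8 and 88.0 in F3-KO sham, 30.2, 91.8 and 40.4 in WT TAC and 105, 158 and 108 in F3-KO TAC. In both genes every F3-KO heart lay above every WT heart of the same surgery, which held for 2 of the 34 genes and for 0.759% of all genes. WT TAC replicate 2 was the highest WT heart in both.

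Cd74, the invariant chain that escorts class II molecules, was at 119.8, 200.2 and 219 CPM in WT sham, 244, 328 and 335 in F3-KO sham, 111, 324 and 152 in WT TAC and 356, 588 and 316 in F3-KO TAC. H2-Eb1, a further class II beta chain, was at 2.91, 2.20 and 4.17 CPM in WT sham, 3.83, 5.36 and 6.41 in F3-KO sham, 1.73, 4.05 and 2.40 in WT TAC and 5.08, 8.74 and 3.79 in F3-KO TAC. Cd74 did not overlap after sham, and WT TAC replicate 2 overlapped the F3-KO TAC hearts in both Cd74 and H2-Eb1.

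The log2 fold changes of F3-KO over WT were 1.08 (SE 0.38) after sham and 1.24 (SE 0.38) after TAC for H2-Aa, 1.00 (SE 0.36) and 1.19 (SE 0.35) for H2-Ab1, 0.74 (SE 0.40) and 1.11 (SE 0.40) for H2-Eb1, and 0.75 (SE 0.37) and 1.10 (SE 0.38) for Cd74. The values after TAC were 1.87, 1.81, 1.52 and 1.67 in the same order without WT TAC replicate 2, and those of H2-Eb1 and Cd74 were 0.69 and 0.77 without F3-KO TAC replicate 2. Averaged over both surgeries, a comparison added after these values were seen, edgeR gave 1.16 (SE 0.27, adjusted p = 0.137) for H2-Aa and 1.10 (SE 0.25, adjusted p = 0.124) for H2-Ab1, and called 0 of the 34, beside 0.411% of all genes. At the unadjusted threshold 11 of the 34 were higher and 0 lower, beside 5.36% of all genes higher and 4.75% lower, DESeq2 called 4 of the 34 at an adjusted p, and limma-trend called 0. The ratio of H2-Ab1 to H2-Aa stayed between 0.719 and 0.879 over the 12 hearts, and that of Cd74 to H2-Aa between 2.52 and 3.69. Class II genes are also carried by B cells and dendritic cells. B cell markers summed to 0.818 to 1.36 CPM in WT sham, 1.38 to 1.92 in F3-KO sham, 0.549 to 1.497 in WT TAC and 1.15 to 2.17 in F3-KO TAC, highest in F3-KO TAC replicate 2. The 6 dendritic cell markers summed to 18.9 to 26.0 CPM in WT TAC and 24.7 to 32.9 CPM in F3-KO TAC, and to 18.9 to 28.05 and 20.1 to 26.1 CPM in WT and F3-KO sham. Of these 6 markers 3 passed the filter. Zbtb46 alone stood at 14.7 to 24.7 CPM over the 12 hearts, and no other of these markers exceeded 5.42 CPM. The sums therefore mostly follow Zbtb46 and say little about the other dendritic cell markers. The mean log2 level of the 3 that passed the filter, relative to WT sham, weighs these equally. It was -0.03 to 0.34 in WT TAC and 0.31 to 0.75 in F3-KO TAC, and -0.43 to 0.44 and -0.007 to 0.32 in WT and F3-KO sham. F3-KO TAC replicate 2 had the highest mean of the 12 hearts and was also the highest heart in all 4 antigen-presenting genes. T and NK cell markers summed to 2.14 to 3.94 CPM in WT sham and 3.83 to 5.86 in F3-KO sham, where the 3 that passed the filter had a median log2 fold change of 0.90 over WT. After TAC their median was -0.56, with 13.7 CPM in WT TAC replicate 2, the WT heart highest in H2-Aa and H2-Ab1. The part of these cell types in the result was not tested.

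For the other roles, the difference from the antigen-presenting genes was not tested. The median log2 fold change of F3-KO over WT after TAC was 1.15 for the antigen-presenting genes, 0.51 for the recruited genes and 0.01 for the resident genes, against 0.48 over the 34 and 0.02 over all genes. After sham the medians were 0.88, 0.22 and 0.18, against 0.26 over the 34 and 0.00 over all genes. The median over the 34 after sham was 0.059 without WT sham replicate 1, 0.11 without WT sham replicate 3 and 0.64 without WT sham replicate 2. Ccr2 was 1.48 (SE 0.45) higher on the log2 scale in F3-KO than in WT hearts after TAC, at an edgeR adjusted p of 0.427, and 0.90 higher without F3-KO TAC replicate 2. Mpeg1 was at 37.2, 33.0 and 17.4 CPM in WT TAC and 67.2, 88.1 and 51.3 in F3-KO TAC, without overlap, and differed by 1.23 (SE 0.36, edgeR adjusted p = 0.383). Of the 34 genes, 7 did not overlap between the genotypes after TAC (H2-Aa, H2-Ab1, Cd14, Fcgr1, Fcer1g, Ctss and Mpeg1), beside 6.28% of all genes, 0 lay below, beside 5.12%, and with library totals 4 did not overlap.

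Whether the response to TAC differed between genotypes was tested by the interaction of genotype and surgery. The estimate was above 0 for 28 of the 34 genes, beside 54.2% of all genes. With and without adjustment edgeR called 0 of the 34, beside 0% of all genes adjusted and 4.48% unadjusted (2.31% higher, 2.18% lower), and DESeq2 and limma-trend called 0 as well. The 95% interval of the log2 difference ran from -0.22 to 2.63 for Ccr2, from -0.25 to 2.58 for Aif1 and from -0.31 to 3.02 for Gpnmb, so that neither 0 nor a large difference lay outside it. Without F3-KO TAC replicate 3, 5 of the 34 passed the unadjusted threshold.

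**Figure D4:**
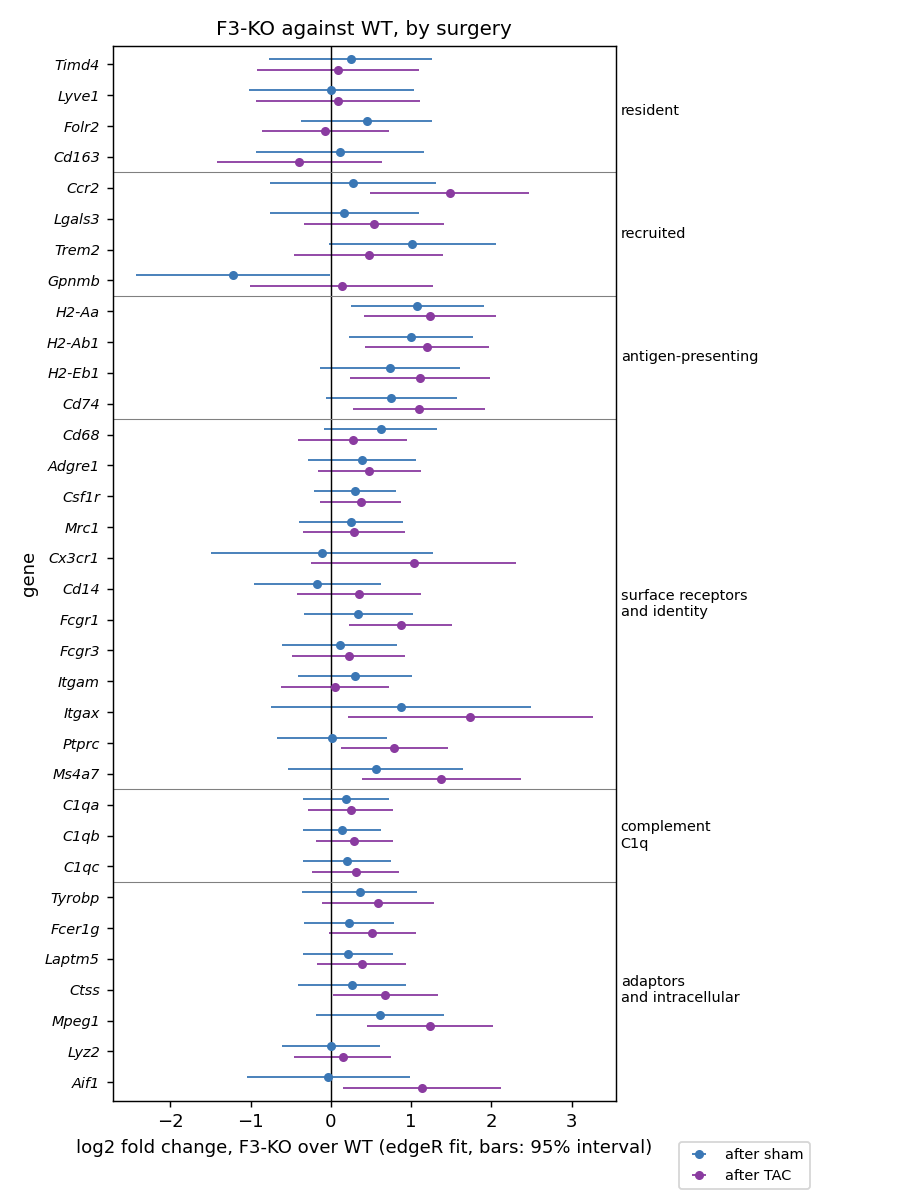
Log2 fold change of F3-KO over WT for each gene after sham (blue) and after TAC (purple), with 95% intervals from the edgeR fit of 3 hearts per group. The 4 antigen-presenting genes lie between 0.74 and 1.24 after both surgeries, and the resident genes lie between -0.39 and 0.45.

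Averaging the 4 genes of a role within each heart, relative to WT sham, showed the groups side by side. The recruited mean was 0.29 to 1.31 in WT TAC and 1.11 to 1.92 in F3-KO TAC, against -0.30 to 0.59 in the 6 sham hearts, so that WT TAC replicate 3 lay within the sham range. The antigen-presenting mean was -0.58 to 0.91 in WT TAC and 0.98 to 1.81 in F3-KO TAC, with -0.35 to 0.34 in WT sham and 0.54 to 1.10 in F3-KO sham, so the F3-KO hearts lay above the WT hearts of the same surgery. The resident mean was 0.36 to 0.66 in WT TAC and -0.55 to 0.89 in F3-KO TAC, with -0.47 to 0.72 in WT sham and 0.25 to 0.38 in F3-KO sham, and all groups overlapped or lay within the range of another.

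**Figure D5:**
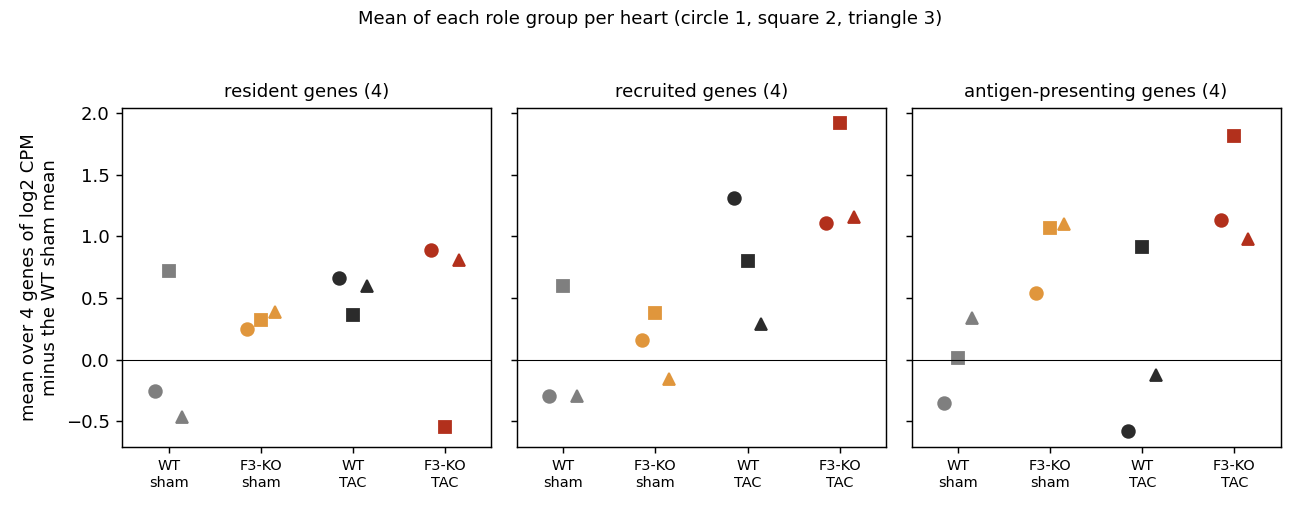
Mean log2 CPM of the 4 resident, 4 recruited and 4 antigen-presenting genes in each heart, minus the mean of the WT sham hearts (1 marker per heart). The F3-KO TAC heart with the highest recruited mean, 1.92, has the lowest resident mean of all hearts, -0.55.

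Other genes of macrophage biology, listed by function and not by how they moved, comprised 78 genes in 9 lists, of which 68 passed the filter. Averaged over genotypes, 30 of the 68 were higher and 1 lower after TAC at the unadjusted threshold, beside 11.3% of all genes higher, and edgeR called 0 at an adjusted p. Genes of monocytes lay at a median log2 fold change of 1.30 with 5 of 7 higher, genes of Fc receptor and DAP12 signalling at 0.75 with 7 of 9, and complement genes and receptors at 0.52 with 5 of 8. Growth factors and chemokines that act on macrophages lay at 0.53 with 3 of 9, further resident macrophage genes at 0.52 with 3 of 7, MHC class II machinery at 0.46 with 3 of 8, myeloid transcription factors at 0.41 with 3 of 8 and lipid-associated macrophage genes at 0.27 with 1 of 8. Inflammatory and alternative activation genes lay at -0.02, with 4 of 9 passing the filter, 0 higher and 1 lower. In F3-KO against WT hearts after TAC, 8 of the 68 were higher and 0 lower at the unadjusted threshold, beside 5.83% of all genes higher. The MHC class II machinery lay at 0.43 in that comparison, with 2 of 8 higher. After both surgeries the machinery mean per heart, relative to WT sham, overlapped between genotypes. It was -0.11 to 0.14 in F3-KO sham and -0.14 to 0.27 in WT sham. After TAC it was 0.35 to 0.68 in F3-KO hearts and -0.58 to 0.44 in WT hearts.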

How the data were processed

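RNA-seq of 12 hearts was analysed. The authors deposited estimated counts per gene, not normalized, after removing low-quality reads with SOAPnuke and mapping them, and the submitters' processing notes name HISAT2 2.0.4, STAR 2.3.0, DESeq2, mm8 and mm9 without a role for each. The counting tool is not given in the sources used here. Fractional counting can move reads between paralogs, and 40.6% of values (33.6% of those of the 34 genes) were not whole. Values were not whole in all 12 hearts for Lyz2, Cd163, Fcgr3, Gpnmb, H2-Eb1 and Lyve1, and in 11 for Ccr2 and Cx3cr1. The tests had been planned for whole counts, so values were rounded to whole numbers. Separate tables of 11 hearts equalled the joint table, which was used throughout, and 0 columns belonged to no sample. No label says that hearts were paired, and every pair of replicates differed by more than sampling noise.

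Genes were filtered with filterByExpr (minimum count 10), which left 14095 and removed 5213, scaled by TMM (factors 0.931 to 1.09), then fitted in R 4.3.3 with edgeR 4.0.16 (quasi-likelihood, 4 groups, Benjamini-Hochberg over all genes). Log2 CPM used a prior count of 2, and the fit gave a biological coefficient of variation of 0.232. Limma 3.58.1 and DESeq2 1.42.0 were alternatives, beside DESeq2 size factors, library totals, other filters, a replicate block, fits of only the libraries compared and each heart left out. The count of members at an unadjusted p, the count without overlap and the genotype comparison averaged over surgeries were added after the data were seen. The scripts were tested on simulated data. All 34 members were named, with values in every heart for the resident, recruited and antigen-presenting genes, and Ms4a7, Fcgr1, C1qb, Ctss, Cx3cr1, Aif1 and Mpeg1 were added after their values were seen. The genes and lists were chosen with earlier results of these data known. Fabp3 served to check the labels. Floors cover counting error only. Promoter sequences came from RefSeq.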

Additional observations from a re-analysis of the deposited data

How the results depend on the processing

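The count of the 34 genes at an adjusted p under 0.05 depended on the method. Averaged over genotypes, the count for TAC over sham was 0 in edgeR, 19 with DESeq2, 1 without a filter on low counts, 3 with at least 10 counts in every library and 23 at an unadjusted p; in F3-KO hearts it was 0, and 8 with DESeq2 and 24 at an unadjusted p; and it was 16 at an unadjusted p in WT hearts. For F3-KO over WT, the unadjusted count was 3 after sham, 12 after TAC and 11 averaged over surgeries, where DESeq2 called 4 at an adjusted p. At the unadjusted threshold the sham count was 5 with DESeq2 and 7 with only the libraries compared. With library totals, genes without overlap numbered 0 instead of 2 for all TAC hearts over all sham hearts, and 4 instead of 7 for genotype after TAC. Library totals also moved the median of all genes. It was 0.12 instead of 0.02 in F3-KO hearts, 0.12 instead of 0.02 in genotype after TAC and 0.16 instead of 0.03 in the interaction. The cause was not tested.

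Leaving out each heart in turn, the adjusted count ran from 0 to 19 averaged over genotypes, 0 to 13 in F3-KO hearts, 0 to 1 for genotype after TAC (1 without F3-KO TAC replicate 3), 0 to 2 for genotype averaged over surgeries (2 without WT TAC replicate 2, 1 without F3-KO TAC replicate 3) and 0 to 0 in WT hearts, genotype after sham and the interaction. The unadjusted count ran from 6 to 24 in WT hearts, 18 to 25 in F3-KO hearts, 22 to 28 averaged, 1 to 13 for genotype after sham (13 without WT sham replicate 2, 1 without WT sham replicate 1 or F3-KO sham replicate 2), 4 to 17 for genotype after TAC, 0 to 5 for the interaction and 7 to 23 for genotype averaged (23 without WT sham replicate 2, 20 without F3-KO TAC replicate 3, 7 without F3-KO sham replicate 2 or F3-KO TAC replicate 2). At least 2 hearts stayed in each group.

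Averaged over genotypes, Timd4 was at 0.04, at -0.089 in limma-trend and at -0.18 to 0.24 with each heart left out, and the log2 fold change of H2-Eb1, TAC against sham averaged over both genotypes, was -0.00, with 0.042 for library totals, 0.00558 for at least 10 counts in every library and -0.22 to 0.14 with each heart left out. In WT hearts, with each heart left out, Gpnmb was at -0.22 to 0.52 and Lyve1 at -0.11 to 1.014, and in F3-KO hearts Folr2 was at -0.33 to 0.45 and Lyve1 at -0.046 to 0.63. None of these 6 passed the test with all hearts in. Single-gene values were also counted once per alternative. Of these combinations, 1551 kept their direction and side of the threshold, 85 passed the threshold only under an alternative and 20 reversed direction.

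Whether hearts with the same number were related was not tested. Same-numbered hearts of different groups correlated at -0.141 to 0.362 in their deviations from group means, above 0.1 in 4 of 18 pairs. Their mean correlation was 0.0481, beside -0.0239 for hearts with other numbers, and 6 of 12 hearts correlated best with their own number. With a replicate block, edgeR called 2 of the 34 averaged over genotypes (Ctss, Trem2) and 2 for genotype averaged over surgeries (H2-Aa, H2-Ab1), and 0 elsewhere. With 3 hearts a group and a floor of 0.209 to 0.288 CPM, differences in Itgax and Timd4 were poorly resolved.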
